A study of Mus musculus with 36 samples.

Results

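The genes described here are the Toll-like receptor genes *Tlr1* to *Tlr6* and the genes for 2 proteins that bind lipopolysaccharide together with TLR4, namely *Cd14* (CD14) and *Ly96* (MD-2). They were chosen by gene name, and all 8 were present among the 53421 genes of the counts table and the 52416 genes of the TPM table. The cells were a conditionally immortalised mouse line that the study describes as fibroblast-like chondrocytes and as wild type. By the study's methods the immortalised growth used interferon-γ, which was washed out before experiments. Every group was transfected. NT cells were transfected with a pool of non-targeting siRNA and IFT88siRNA cells with a pool of siRNA against *Ift88*, which encodes a protein of intraflagellar transport, the traffic that builds the primary cilium. The labels give each siRNA at 50 nM, and the study's methods give another concentration. RNA was taken at 0 h from cells kept in medium alone, and at 5 later times (1, 2, 4, 8 and 24 h) from cells given the inflammatory cytokine IL-1β at 10 ng/ml. Each of the 12 conditions has 3 libraries, 36 in all. No medium-only cells were sampled after 0 h, so time in culture and IL-1β cannot be told apart.

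Toll-like receptors are membrane proteins that recognise molecules of microbes or of damaged tissue. TLR2 pairs with TLR1 or TLR6 to bind bacterial lipopeptides, TLR4 binds lipopolysaccharide with MD-2 after CD14 has delivered it, TLR5 binds flagellin at the cell surface, and TLR3 binds double-stranded RNA inside endosomes. All of these except TLR3 signal through the adapter MyD88, which the IL-1 receptor also uses, and the shared route leads to the transcription factor NFκB. In cartilage, TLR2 and TLR4 are known for responses to fragments of the extracellular matrix.

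The promoters of *Tlr2* and *Tlr3* are shown because these genes had the largest rises after IL-1β and because their windows held a match to the κB consensus, the binding motif of NFκB. RefSeq promoter windows (GRCm38.p6, 250 bases before to 50 after the gene's start) were at hand for 5 of the 8 genes, *Tlr1*, *Tlr2*, *Tlr3*, *Tlr5* and *Tlr6*, with 7 windows in all. On both strands, with overlapping matches joined, the κB consensus was found at 2 places in the *Tlr2* window and 1 place in the *Tlr3* window, and not in the windows of *Tlr1*, *Tlr5* or *Tlr6*. It was present in 8.46% of all 32851 windows. The first stretch is the part of the *Tlr2* window that lies upstream of every annotated exon, and the other 2 stretches are 30 bases around a match that overlaps an annotated exon. Capitals mark the matching bases, and each line reads 5′ to 3′ on the minus strand.
*Tlr2*, chr3:83841768-83841858: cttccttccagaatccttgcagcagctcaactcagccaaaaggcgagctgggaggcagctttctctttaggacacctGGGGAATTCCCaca
*Tlr2*, chr3:83841597-83841626: ccctgacctgGGGACATCCCcttccctcac
*Tlr3*, chr8:45410572-45410601: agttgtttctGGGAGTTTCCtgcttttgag
The capitals of the first line hold 2 overlapping matches and end 162 bases before the RefSeq start, and those of the second line span the start itself. The *Tlr3* match ends 201 bases before the RefSeq start, inside an exon of other annotated transcripts. The letters TGANTCA, a motif of AP-1, were in no window of these genes and in 7.81% of all windows. A match describes these letters only and was not tested for binding.

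Libraries held 19337022 to 38304127 counts on genes, without molecular identifiers, so depth speaks to counting error only. Nothing in the labels says that the 3 libraries of a condition came from separate cultures, so p-values measure the spread between these libraries. Pairs of libraries of 1 condition differed by more than counting noise, with a chi-square per degree of freedom from 1.65 to 10.02. *Ift88* was lower in IFT88siRNA than in NT at every time point, from 1.43 to 3.10 CPM (reads of a gene scaled to the size of the library) against 5.83 to 10.24 CPM, without overlap. The fibroblast marker *Col1a2* had 35192 or more counts in each library and the chondrocyte marker *Sox9* 327 or more, although *Acan*, which encodes the main proteoglycan of cartilage, had 1 to 16 counts. Of 12 macrophage and leukocyte markers, *Tyrobp* and *Cd3e* had no count in any library and *Ptprc* had at most 5. The 12 together reached 0.591 to 2.82 CPM in NT and 0.459 to 2.31 CPM in IFT88siRNA, and in NT their sum was 1.02 to 1.39 CPM at 0 h and 2.04 to 2.82 CPM at 4 h. The part of such cells in the levels below was not tested.

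All 8 genes had enough reads to be tested. Per length, in TPM (a level scaled by gene length and library size), *Tlr4*, *Ly96* and *Tlr3* stood highest in NT cells at 0 h, at 20.7 ± 0.494, 20.2 ± 1.80 and 20.1 ± 2.31 TPM (mean ± SD, n = 3 here and below), and their ranges overlapped. *Tlr2* followed at 13.8 ± 0.226 TPM, then *Cd14* at 8.72 ± 0.456, *Tlr6* at 5.48 ± 3.17, *Tlr5* at 3.36 ± 0.360 and *Tlr1* at 0.994 ± 0.303 TPM. Of the neighbours in this order, *Cd14* and *Tlr6* overlapped in their ranges, as did *Tlr6* and *Tlr5*. The order changed after IL-1β. *Tlr2* stood highest from 1 h to 8 h, at 307 ± 13.4, 511 ± 7.05, 277 ± 1.54 and 106 ± 3.46 TPM at 1, 2, 4 and 8 h. At 24 h *Tlr2* (41.4 ± 2.84 TPM) and *Cd14* (38.9 ± 2.18 TPM) overlapped. *Tlr1* stayed lowest in each of the 12 conditions. *Tlr2* made up 14.8% ± 1.18 of the summed TPM of the 8 genes in NT cells at 0 h and 84.2% ± 0.915 at 2 h, and *Tlr3* made up 33.2% of the sum at 4 h.

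**Figure D1:**
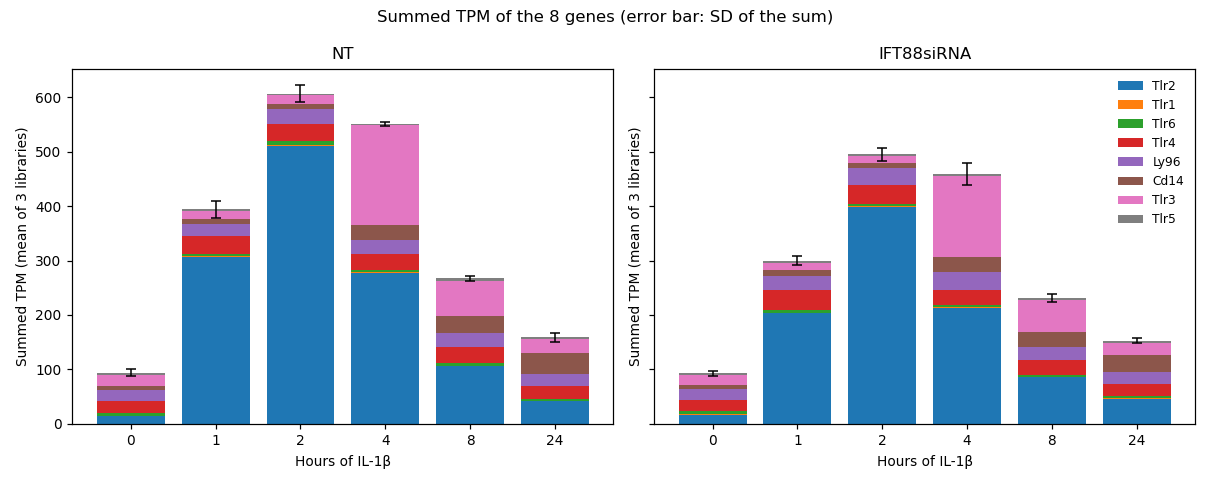
Summed TPM of the 8 genes (vertical axis, mean of 3 libraries, error bar SD of the sum) against hours of IL-1β in NT (left) and IFT88siRNA (right), with each gene as a coloured segment. The NT sum went from 93.4 TPM at 0 h to 607 TPM at 2 h, where most of the bar is *Tlr2*, and the *Tlr3* segment is widest at 4 h.

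The first comparison asked which of the genes responded to IL-1β in control cells. The 18 NT libraries were fitted together in edgeR, and a gene was called changed with a Benjamini-Hochberg adjusted p under 0.05 and a fold change over 1.5. With the 5 time points after IL-1β tested together, 6 of the 8 genes were called (*Tlr1*, *Tlr2*, *Tlr3*, *Tlr4*, *Cd14* and *Ly96*), beside 50.0% of all 16048 genes tested. By single time point 2 genes were called at 1 h (18.7% of all genes), 3 at 2 h (27.3%), 5 at 4 h (28.7%), 3 at 8 h (19.7%) and 2 at 24 h (16.3%), and every one of these calls was a rise. By the adjusted p alone, with no fold threshold, 5, 6, 6, 6 and 5 of the 8 genes passed, beside 51.7%, 60.9%, 60.9%, 52.4% and 44.9% of all genes. The median log2 change of the 8 genes was 0.37, 0.51, 0.67, 0.51 and 0.20 from 1 h to 24 h in order, while the median of all genes tested lay between −0.02 and −0.01. In these bulk libraries, more cells that express a gene and more RNA per cell cannot be told apart.

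**Figure D2:**
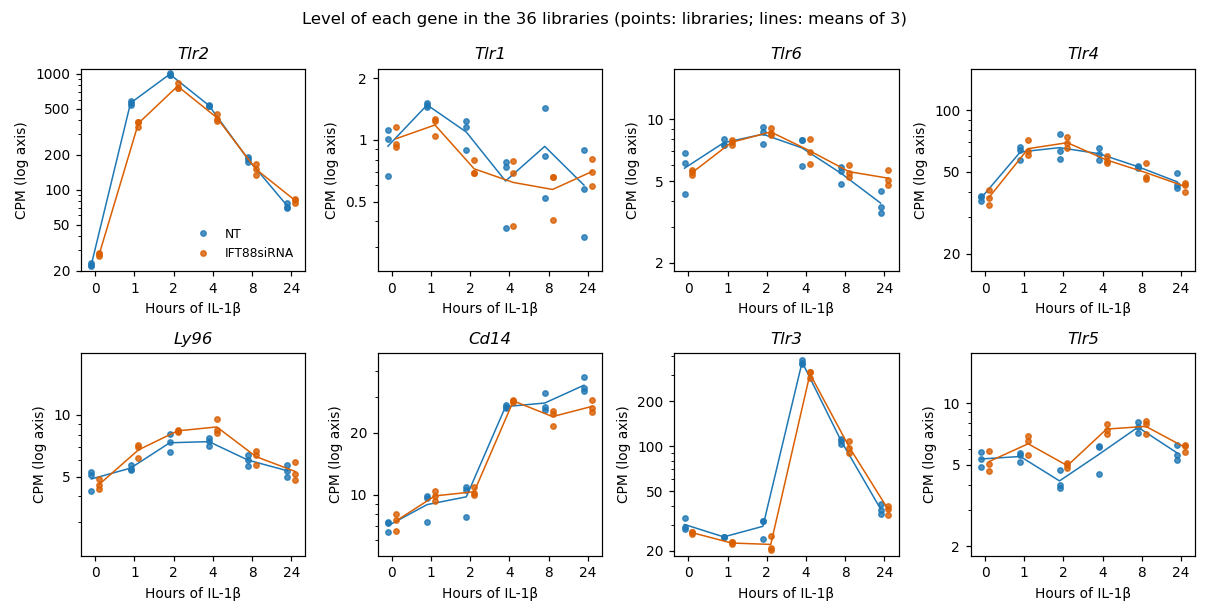
CPM of each gene (vertical log axis) in each of the 36 libraries against hours of IL-1β, with NT in blue and IFT88siRNA in orange, points for libraries and lines through the means of 3. *Tlr2* is highest at 2 h, *Tlr3* at 4 h and *Cd14* at 4 h or later, while *Tlr4* stays between 34.4 and 76.4 CPM in all libraries.

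*Tlr2*, on the minus strand of chr3:83836272-83841767 (GRCm38), had the largest change. Its levels in NT were 22.5, 21.9 and 23.1 CPM at 0 h, 567, 534 and 582 CPM at 1 h and 985, 1012 and 989 CPM at 2 h. They were 541, 530 and 531 CPM at 4 h, 191, 173 and 185 CPM at 8 h and 70.6, 77.3 and 69.1 CPM at 24 h. All treated libraries lay above all 0 h libraries, the peak was at 2 h, and the ranges overlapped only between 1 h and 4 h. The fold change was 24.9 at 1 h, 44.1 at 2 h, 23.9 at 4 h, 8.15 at 8 h and 3.21 at 24 h. On the log2 scale the 2 h rise was 5.46 ± 0.06 (SE, adjusted p = 4.1e-28), and *Tlr2* was called at each of the 5 time points.

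The genes for the partners of TLR2 were called at no single time point in NT. *Tlr6*, on the minus strand of chr5:64952031-64960097, was between 3.52 and 9.20 CPM in all 36 libraries, and its log2 changes in NT were 0.41, 0.54, 0.34, −0.08 and −0.56 at the 5 successive time points, none past the fold threshold. In the TPM values its change at 1 h was −0.07 on the log2(TPM + 1) scale, so a direction at 1 h is not given. *Tlr6* was called over the NT time course with upper-quartile scaling and without any 1 of the 3 replicates, but not in the fit reported here. *Tlr1*, on the minus strand of chr5:64924679-64933563, had only 7 to 35 counts per library. It was called when the time points were tested together (adjusted p = 0.010), with a log2 change of 0.66 ± 0.31 at 1 h and −0.63 ± 0.35 at 24 h, but no single time point was called, and the call was lost in the TPM values and without replicate 3. *Tlr1* and *Tlr6* are close relatives: 10.6% of the 75-base stretches of *Tlr1* transcripts occurred in transcripts of other genes, and 9.25% of those of *Tlr6* occurred in *Tlr1*. Reads that match more than 1 gene are left out at the default setting of the counting program, so counts of these genes are uncertain.

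The genes of the lipopolysaccharide receptor rose with different time courses. *Tlr4*, on the plus strand of chr4:66827584-66930284, had 36.1, 38.2 and 37.6 CPM at 0 h in NT, 57.1, 64.1 and 66.5 CPM at 1 h and 57.5, 76.4 and 63.1 CPM at 2 h. All libraries at 1 and 2 h were above those at 0 h, and the 1 h and 2 h ranges overlapped. The rise was 1.68-fold at 1 h, 1.76-fold at 2 h (log2 0.81 ± 0.08, adjusted p = 4.9e-09) and 1.66-fold at 4 h, all called, and 1.43-fold at 8 h and 1.20-fold at 24 h, neither past the fold threshold. With TPM values the 4 h change was 0.41 on the log2(TPM + 1) scale and not called, where the median of all genes shifted by −0.24 against the counts.

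*Ly96*, on the plus strand of chr1:16688051-16709611, passed at 2 h and 4 h only. Its NT libraries had 4.27, 5.24 and 5.10 CPM at 0 h, 6.57, 8.02 and 7.33 CPM at 2 h and 7.48, 7.71 and 7.02 CPM at 4 h, so the 2 h and 4 h libraries were above those at 0 h. The log2 change was 0.59 ± 0.11 at 2 h (adjusted p = 4.4e-05) and 0.61 ± 0.11 at 4 h (adjusted p = 2.6e-05). Both calls were just past the fold threshold of 0.585 on the log2 scale, and both were lost with upper-quartile scaling (0.48 and 0.49) and in the TPM values (0.41 and 0.38). The 4 h call was also lost without replicate 1 (0.52), without only its 0 h library (0.53) and without replicate 2 of the 4 h libraries (0.57), and the 2 h call without replicate 1, without replicate 2 and without any of several single libraries, the 0 h library of replicate 1 and the 2 h library of replicate 2 among them. With the 5 time points tested together, *Ly96* was also not called without replicate 1 of NT, or without only the 0 h library of that replicate.

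*Cd14*, on the minus strand of chr18:36725067-36726798, rose later and did not return within 24 h. It had 7.35, 6.56 and 7.23 CPM at 0 h in NT, 7.77, 10.6 and 10.9 CPM at 2 h, and 26.5, 26.7 and 27.2 CPM at 4 h. The levels were 26.6, 25.9 and 31.3 CPM at 8 h and 37.4, 33.0 and 31.9 CPM at 24 h. The 3 later time points lay above all earlier libraries, and 24 h lay above 8 h without overlap. The rise was 3.83-fold at 4 h, 3.99-fold at 8 h and 4.84-fold at 24 h (log2 2.27 ± 0.11, adjusted p = 6.3e-15), and the changes of 1.26-fold at 1 h and 1.39-fold at 2 h did not pass the fold threshold.

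*Tlr3*, on the minus strand of chr8:45395665-45411080, rose between 2 h and 4 h. The NT libraries had 28.1, 33.2 and 28.7 CPM at 0 h, 24.8 CPM in each library at 1 h and 31.5, 24.1 and 31.9 CPM at 2 h. They then had 377, 355 and 359 CPM at 4 h, 109, 103 and 111 CPM at 8 h and 37.8, 41.4 and 35.3 CPM at 24 h. No library of the first 3 time points overlapped the later ones, and 4 h stood highest. The change was 12.2-fold at 4 h (log2 3.61 ± 0.08, adjusted p = 3.4e-22) and 3.60-fold at 8 h, both called. At 1 h the log2 change was −0.28 ± 0.09 (adjusted p = 0.0088), not past the fold threshold. The first exons of *Tlr3* share 381 bases with the antisense gene *Gm45542*, which had at most 3 counts in a library, and counting without regard to strand cannot tell the reads of the pair apart.

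*Tlr5*, the flagellin receptor gene on the plus strand of chr1:182954788-182976044, ranged from 3.87 to 8.13 CPM over all libraries. In NT its log2 change was −0.36 ± 0.13 at 2 h and 0.52 ± 0.11 at 8 h (adjusted p = 0.00049), and the 8 h libraries, at 8.06, 7.18 and 7.63 CPM, lay above those of the other time points. No *Tlr5* change passed the fold threshold.

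**Figure D3:**
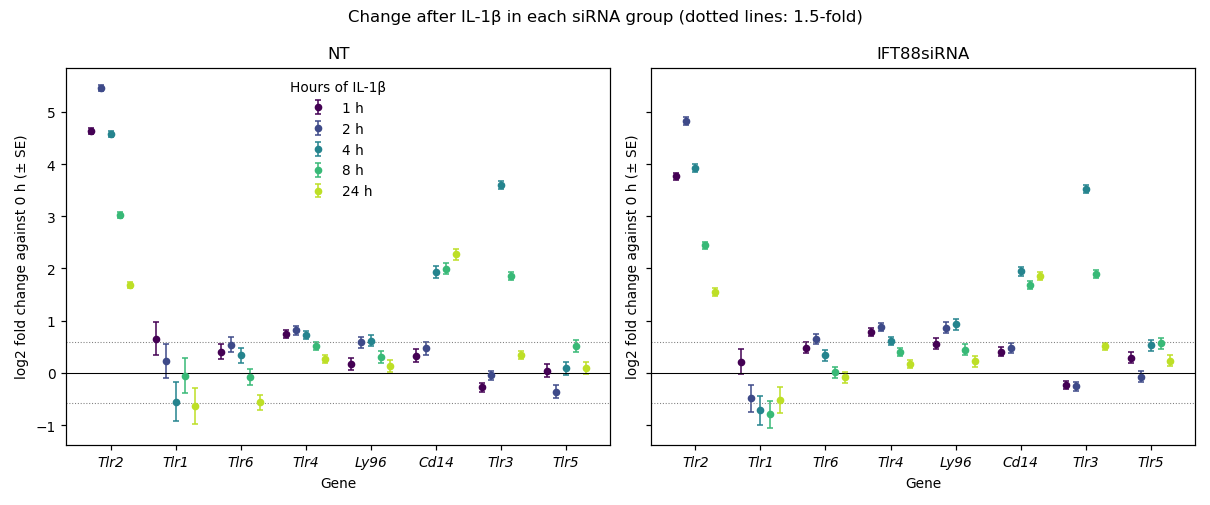
log2 fold change against 0 h (vertical axis, ± SE) of each gene at the 5 time points after IL-1β in NT (left) and IFT88siRNA (right), from 3 libraries per time point, with dotted lines at 1.5-fold. *Tlr2* lies above the line at every time point in both panels, *Tlr3* at 4 and 8 h and *Cd14* from 4 h on.

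Likeness of profiles was measured by Pearson's r over the 12 condition means of log2 CPM among 16710 genes. It is given as a description, since the means share libraries and scaling. The genes named were picked for the highest r of all, so a high r is partly a product of that choice. The 3 genes most like *Tlr2* were *Gm38357* (r = 0.986), *Nfkbie* (0.981) and *Tlr4* itself (0.979), while the genes most like *Tlr4* were *F3* (0.983), *Trib1* (0.979) and *Tlr2*. *Nfkbie* encodes an inhibitor of NFκB and *F3* tissue factor. *Tlr2* ranged over 5.46 log2 units and *Tlr4* over 0.89, so the shape was alike and the size was not. *Tlr3* was most like *Parp12* (0.998), *Gbp7* (0.997) and *Parp9* (0.996), genes known to respond to interferon, and *Cd14* was most like *Ms4a4d* (0.992), *Osmr* (0.989), the oncostatin M receptor gene, and *Pdpn* (0.988), which encodes podoplanin. The leading genes were *Atp1b3* (0.974), *Tmem123* (0.958) and *Psmd8* (0.957) for *Ly96*, and *Iglon5* (0.982), *Fscn1* (0.978) and *Fhl2* (0.975) for *Tlr6*. Those for the low genes were *Gm15408* (0.932), *Usp35* (0.926) and *Rhpn1* (0.925) for *Tlr1* and *Pus10* (0.928), *Rnf20* (0.916) and *Slc35b4* (0.914) for *Tlr5*. *Pus10*, *Rnf20* and *Slc35b4* ranged over only 0.52, 0.33 and 0.48 log2 units. Between *Tlr2* and its partners r was 0.79 for *Tlr6* and 0.13 for *Tlr1*. Both values rest on the counts, which were low for *Tlr1*. For *Tlr6* the count-based changes at 1 h in NT and 2 h in IFT88siRNA had the opposite sign in the TPM values.

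The second comparison was the same time course in IFT88siRNA cells. Tested together, 7 of the 8 genes were called, the 6 of NT and *Tlr6*, beside 48.2% of all genes. *Tlr6* passed at 2 h in the counts, with a log2 difference from 0 h of 0.65 ± 0.10 (adjusted p = 6.2e-06), but the value was −0.04 on the log2(TPM + 1) scale and 0.55 with upper-quartile scaling, and *Tlr6* was not called over the time course with either, so no direction is given for it. *Tlr1* passed at 4 h and 8 h, where it fell by 0.72 and 0.79 on the log2 scale, and was not called over the time course in the TPM values. The peaks of *Tlr2* at 2 h and *Tlr3* at 4 h were at the same time points as in NT. *Tlr2* had 28.4, 26.8 and 27.6 CPM at 0 h, 386, 351 and 387 CPM at 1 h and 828, 763 and 762 CPM at 2 h, a rise of 13.6-fold at 1 h and 28.4-fold at 2 h. *Tlr3* had 26.9, 25.9 and 26.5 CPM at 0 h and 284, 314 and 312 CPM at 4 h, a rise of 11.5-fold. *Cd14* had 7.53, 8.06 and 6.67 CPM at 0 h and 28.2, 29.0 and 28.5 CPM at 4 h, and its 24 h libraries overlapped those of 4 h and of 8 h, while 4 h lay above 8 h without overlap. *Ly96* reached 8.39, 9.59 and 8.20 CPM at 4 h, a log2 rise of 0.93 ± 0.10 (adjusted p = 3.7e-08), and *Tlr4* rose 1.85-fold at 2 h.

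The third comparison asked how the siRNA groups differed at each time point, with 3 libraries against 3. Here and below, lack of overlap between the groups describes these libraries only, since its share among all genes was not counted. *Tlr2* at 1 h was the only call among the 8 genes. It had 386, 351 and 387 CPM in IFT88siRNA against 567, 534 and 582 CPM in NT, without overlap, and fell by 0.59 on the log2 scale (SE 0.04, adjusted p = 3.2e-07), to 66.8% of the NT mean. That is 1 of 8 genes beside 2.66% of all genes at 1 h. The value is just past the fold threshold of 0.585, and the call was lost with all 36 libraries in 1 model (log2 −0.58), without a filter on low counts, and without NT replicate 1, NT replicate 3 or IFT88siRNA replicate 2. None of the 8 genes was called at 0 h (2.23% of all genes), 2 h (0.496%), 4 h (0.432%), 8 h (0.692%) or 24 h (1.15%) by edgeR, by DESeq2 or by limma on TPM. At these time points 2, 3, 3, 3 and 3 of the 8 genes had an unadjusted edgeR p under 0.05, beside 32.1%, 17.2%, 17.9%, 21.1% and 22.2% of all genes, and at 1 h 3 of the 8 did, beside 32.4%. By the adjusted p alone 2, 1, 1, 2, 1 and 1 of the 8 genes passed at the 6 time points in order, beside 19.5%, 19.0%, 2.76%, 3.85%, 4.25% and 8.66% of all genes.

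The direction of the *Tlr2* difference changed along the time course. At 0 h *Tlr2* was higher in IFT88siRNA, at 28.4, 26.8 and 27.6 against 22.5, 21.9 and 23.1 CPM, a log2 difference of 0.29 ± 0.06 (adjusted p = 0.0010). After IL-1β it was lower in all IFT88siRNA libraries than in all NT libraries at 1, 2, 4 and 8 h, with log2 differences of −0.35 ± 0.04 at 2 h, −0.36 ± 0.05 at 4 h and −0.30 ± 0.07 at 8 h (adjusted p = 0.0030, 0.00060 and 0.033). At 24 h the groups overlapped, at 81.8, 83.1 and 77.1 CPM in IFT88siRNA and 70.6, 77.3 and 69.1 CPM in NT. These differences at 0, 2, 4 and 8 h passed the adjusted p and were under the fold threshold.

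*Tlr3* was lower in IFT88siRNA in all libraries at 0 h, 1 h and 4 h. At 4 h it had 284, 314 and 312 CPM against 377, 355 and 359 CPM in NT, a log2 difference of −0.27 ± 0.05 (adjusted p = 0.0047). Its log2 differences at the other time points were −0.18, −0.14, −0.40, −0.15 and −0.02 at 0, 1, 2, 8 and 24 h. *Cd14* was lower at 24 h, at 26.5, 25.2 and 28.9 CPM against 37.4, 33.0 and 31.9 CPM without overlap, a log2 difference of −0.35 ± 0.07 (adjusted p = 0.0048), or 78.8% of the NT mean. At 8 h its difference was −0.24 ± 0.09 (adjusted p = 0.14), also without overlap, whereas at 4 h its IFT88siRNA libraries lay above those of NT without overlap, at 28.2 to 29.0 against 26.5 to 27.2 CPM, or 107% of the NT mean, with an unadjusted p above 0.05. *Ly96* was higher in all IFT88siRNA libraries at 1, 2 and 4 h, with differences of 0.29, 0.18 and 0.23 and adjusted p-values of 0.074, 0.41 and 0.29.

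*Tlr4* overlapped between the siRNA groups at every time point. Its 95% intervals (estimate ± 1.96 SE) lay between −0.24 and 0.25 on the log2 scale over the 6 time points, so a 1.5-fold difference in *Tlr4* lay outside each interval. Intervals here and below are approximate, since the SE comes from F and a normal spread is taken for few libraries. The intervals of *Tlr5* lay between −0.27 and 0.66 and those of *Tlr6* between −0.33 and 0.65, each reaching past 1.5-fold on the upper side. *Tlr5* lay higher in IFT88siRNA without overlap at 2 h and at 4 h, where it was at 133% of the NT mean, and *Tlr6* at 24 h, at 132%. The values of *Tlr5* at 4 h and *Tlr6* at 24 h had an unadjusted p under 0.05 and did not pass adjustment. For *Tlr1*, with its low counts, the intervals lay between −1.41 and 0.85. It lay lower in IFT88siRNA without overlap at 1 h and 2 h, and at 2 h, at 66.2% of the NT mean, its p was under 0.05 before adjustment only.

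**Figure D4:**
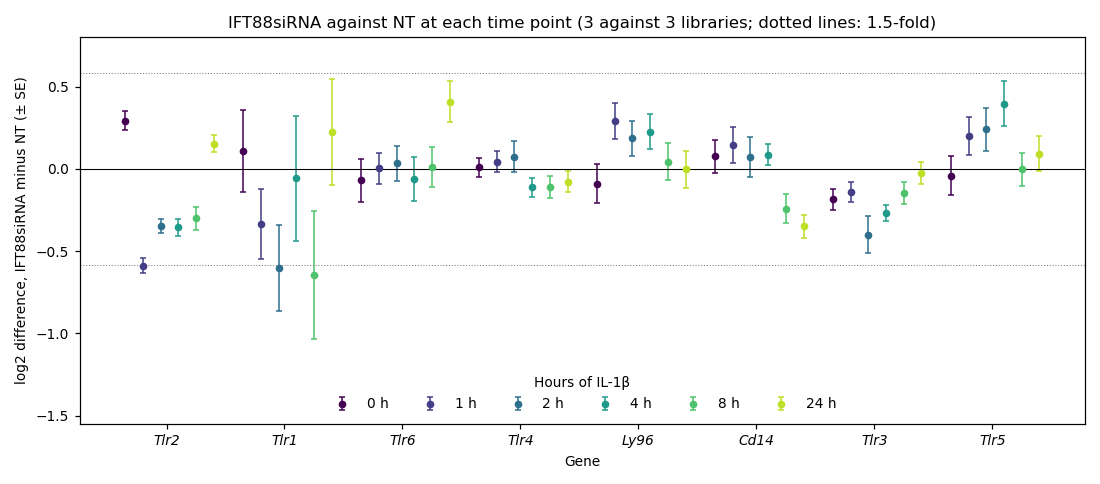
log2 difference between IFT88siRNA and NT (vertical axis, ± SE) for each gene at each of the 6 time points, from 3 libraries against 3, with dotted lines at 1.5-fold. *Tlr2* is above 0 at 0 h and below it from 1 h to 8 h, reaching the lower line at 1 h, and *Tlr4* stays close to 0.

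A test over the whole time course took the 6 siRNA differences jointly, with all 36 libraries in the fit. None of the 8 genes was called by edgeR, beside 5.19% of all genes, and none by DESeq2. By limma on TPM 1 gene, *Tlr2*, was called, and no share of all genes is given for that fit. A further count without the fold threshold gave 5 genes, *Tlr2* (adjusted p = 2.0e-11), *Tlr3* (adjusted p = 0.00035), *Cd14* (0.0078), *Tlr5* (0.026) and *Ly96* (0.042), beside 31.8% of all genes by the same rule. These 5 also had an unadjusted p under 0.05, as did 41.5% of all genes. The adjusted p was 0.66 for *Tlr4*, 0.25 for *Tlr6* and 0.30 for *Tlr1*. For *Tlr5* it was 0.057 with DESeq2 and 0.18 with limma on log2(TPM + 1). For *Ly96* it was 0.13 with DESeq2 and 0.0093 with that limma fit. In edgeR without replicate 1, 2 or 3 it was 0.40, 0.089 and 0.11 for *Tlr5* and 0.20, 0.25 and 0.34 for *Ly96*. The edgeR value also passed 0.05 for *Tlr3* without replicate 1 (0.061) and *Cd14* without replicate 1 (0.082) or 2 (0.085).

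The last comparison asked whether the change after IL-1β itself differed between the siRNA groups. *Tlr2* was called, 1 of 8 genes beside 1.20% of all genes, with an adjusted p of 4.6e-08 for the 5 time points together. Its log2 change was smaller in IFT88siRNA by 0.88 ± 0.09, 0.64 ± 0.09, 0.64 ± 0.09, 0.58 ± 0.09 and 0.14 ± 0.09 at the 5 time points in order, of which the first 3 were called. At 1 h each NT library was 23.7 to 25.9 times the NT mean at 0 h and each IFT88siRNA library 12.7 to 14.0 times its own mean at 0 h, without overlap. The difference at 1 h holds both the higher 0 h level and the lower 1 h level of IFT88siRNA. *Cd14* had an adjusted p of 0.035 for the 5 time points together, with its largest difference of −0.42 ± 0.14 at 24 h, and was not past the fold threshold. By the adjusted p alone these are 2 of 8 genes, beside 5.53% of all genes. For *Cd14* the adjusted p was 0.0077 with DESeq2 and 0.095, 0.12 and 0.17 in the 3 limma fits on TPM. In edgeR without replicate 1, 2 or 3 it was 0.32, 0.34 and 0.034. For *Tlr3* the difference at 4 h was −0.08 ± 0.11, with a 95% interval over the 5 time points between −0.46 and 0.39, and for *Tlr4* the intervals lay between −0.35 and 0.30. No test of the response passed for *Tlr1*, *Tlr5*, *Tlr6* or *Ly96*, with adjusted p-values of 0.61, 0.36, 0.45 and 0.38.

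Other genes of the pathway were counted by list in the NT time course, where 50.0% of all genes were called. Of 6 other Toll-like receptor genes only *Tlr7* had enough reads to be tested, at 0 to 27 counts, and it was called as a rise, while *Tlr11* had no count and *Tlr8*, *Tlr9*, *Tlr12* and *Tlr13* had at most 4. All 4 tested TIR adapter genes were called. *Myd88* rose 4.51-fold at 4 h and *Ticam1*, which encodes the TLR3 adapter TRIF, 1.83-fold at 2 h, *Tirap* fell by 0.93 on the log2 scale at 1 h and *Sarm1*, an inhibitory adapter, fell by 1.44 at 4 h. *Ticam2* had at most 10 counts and was not tested. *Lbp*, the gene for a protein that carries lipopolysaccharide to CD14, rose 9.54-fold at 24 h, the only tested gene of 4 in its list.

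Of 7 genes for chaperones and trafficking of Toll-like receptors 2 were called, both higher, *Unc93b1*, which brings TLR3 to endosomes (1.92-fold at 8 h), and *Lrrc59* (1.65-fold at 4 h). Of 17 kinases and ligases of the pathway 9 were called, 8 higher and *Tab1* lower at their largest change, with *Ikbke* (3.60-fold), *Irak2* (2.51-fold) and *Peli1* (2.30-fold) leading at 4 h. All 6 transcription factor genes were called, led by *Irf5* (22.0-fold at 4 h), *Irf1* (11.6-fold at 1 h), *Nfkb1* (5.78-fold at 4 h) and *Rela* (3.11-fold at 2 h). Of 8 tested inhibitors 6 were called, all higher, led by *Tnfaip3* (84.9-fold at 1 h), *Nfkbia* (20.7-fold at 1 h), *Il1rl1* (18.7-fold at 4 h) and *Irak3* (6.06-fold at 8 h). At 4 h the median log2 change was 0.44 for the adapters, 0.01 for the chaperones, 0.25 for the kinases and ligases, 1.51 for the transcription factors and 2.26 for the inhibitors, beside −0.02 for all genes.

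Of 10 tested genes for matrix proteins and other proteins known as ligands of TLR2 or TLR4, 6 were called, all higher. *Bgn*, *Fn1*, *Hmgb1* and *Hspd1* were not called. *S100a9* had at most 1 count in a library and was not tested. *Saa3*, an acute-phase protein gene, went from 1 to 5 counts per library at 0 h to between 24891 and 29495 at 24 h in NT, *S100a8* from 2 to 5 counts to between 69 and 117, and *Dcn* (decorin) from 10.0 ± 0.602 to 504 ± 28.9 CPM. *Lum* (lumican) rose 10.9-fold at 24 h. Of the cell type markers, 5 of 5 tested chondrocyte markers, 6 of 8 fibroblast markers and 1 of 1 tested endothelial marker (*Tek*, lower) were called over the NT time course. So were 2 of 2 tested macrophage and leukocyte markers, *Csf1r* (0 to 14 counts over the 36 libraries) and *Aif1* (1 to 22 counts). At their largest change 2 chondrocyte markers were higher and 3 lower, and 4 fibroblast markers were higher and 2 lower. At 24 h 5 chondrocyte markers were called, all lower, and 3 fibroblast markers were called higher and 3 lower, beside 16.3% of all genes called. Between the siRNA groups over the time course 5.19% of all genes were called, and no adapter, chaperone, kinase or ligase was. The calls were *Irf5* among the transcription factors, *Il1rl1* and *Tnfaip3* among the inhibitors, and *Dcn*, *Lum* and *Saa3* among the ligands. The means of *Il1rl1*, *Tnfaip3* and *Saa3* were lower in IFT88siRNA at every time point. At 8 h *Il1rl1* had 393 against 839 CPM, and at 24 h *Saa3* had 674 against 1008 CPM. Cell type markers also differed between the siRNA groups. The calls were 4 of 6 chondrocyte markers (*Sox9*, *Acan*, *Col2a1* and *Comp*), of which *Acan* had only 1 to 16 counts per library. They were also 3 of 8 fibroblast markers (*Col3a1*, *Dcn* and *Lum*) and 2 of 4 tested macrophage and leukocyte markers (*Csf1r* and *Aif1*). At 1 h the log2 difference was −1.62 for *Csf1r* and 1.74 for *Aif1*, both at low counts. The tested endothelial marker was not called. At 0 h, where *Tlr2* was higher in IFT88siRNA, the log2 difference was 0.62 for *Sox9*, 0.60 for *Comp* and 0.72 for *Col3a1*, and −0.76 for *Col2a1*. Of the other fibroblast markers, *Lum* was higher too, at 1.13 against 0.454 CPM, as were the means of *Dcn*, *Col1a2*, *Pdgfra* and *Pdgfrb*. *Thy1* (6.17 against 7.46 CPM) and *Col1a1* (343 against 362 CPM) had lower means in IFT88siRNA. At 24 h the called markers *Dcn* (315 against 504 CPM) and *Lum* (4.16 against 5.03 CPM) had lower means in IFT88siRNA. *Col3a1* had a higher mean there (235 against 179 CPM). The part of these markers in the differences of the 8 genes was not tested. A different response to IL-1β was called for *Il1rl1*, *Dcn*, *Lum*, *Tnc*, *Saa3* and the chondrocyte marker *Sox9*, beside 1.20% of all genes. *Myd88* was not called in either test, as its differences stayed under the fold threshold. By the edgeR adjusted p alone it passed over the time course (3.0e-05), as did *Ticam1* (4.7e-05) and *Tirap* (0.0048), beside 31.8% of all genes. For the response *Myd88* (0.028) and *Tirap* (0.027) passed, beside 5.53%, and *Myd88* differed by −0.31 ± 0.07 at 4 h. At 0 h *Myd88* was 0.29 ± 0.05 higher in IFT88siRNA on the log2 scale (adjusted p = 0.00018), as *Tlr2* was.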

How the data were processed

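The authors aligned paired-end reads of poly(A) RNA to GRCm38 with HISAT2 2.1.0 and counted them with featureCounts (Subread 1.6.3) on Ensembl genes, at default settings, which ignore strand, and deposited whole counts per gene with no scaling. A second table deposited by the authors holds TPM values from Salmon 0.9.1. Total counts per library were 19337022 to 38304127. Groups came from the labels. Counts were tested in R 4.3.3 with edgeR 4.0.16 (TMM, filterByExpr, quasi-likelihood F-tests, two-sided, Benjamini-Hochberg over all genes tested). The NT and IFT88siRNA time courses used 18 libraries each, siRNA comparisons 6 per time point, and tests over both groups 36. Calls over time points needed 1.5-fold at 1 or more of them. SE is the log2 change divided by the square root of F. CPM uses TMM scaling, and profile likeness a prior count of 2. Alternatives were DESeq2 1.42.0, its size factors, upper-quartile scaling, no filter, no fold threshold, 1 model over all 36 libraries, replicate blocks, limma 3.58.1 on log2(TPM + 1) (minimum TPM of 1 in 3 libraries) or log2(TPM + 0.1), and leaving out libraries.

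Named are the 8 genes, of each list up to 4 called genes with the largest change in NT, the adapters, and the 3 genes most like each of the 8. Some other list genes are named where they were called between the siRNA groups, not called, not tested or low. The steps were tested on simulated data. Genes and lists were chosen with earlier results of these data known. Positions are from GENCODE M21 and promoters from RefSeq. A motif of interferon regulatory factors was also searched in the promoters and is not shown, a choice made after its result was seen. Figures used matplotlib 3.10.9. The columns hold no comparisons by the authors.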

Additional observations from a re-analysis of the deposited data

Results flagged for a closer look

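The response of *Tlr2* to IL-1β differed between the siRNA groups by a test of the difference itself. At 1 h the log2 change from 0 h was 0.88 smaller in IFT88siRNA than in NT (−0.88 ± 0.09 SE, 3 libraries per condition), and the 5 time points together gave an edgeR adjusted p of 4.6e-08. The call was kept under each scaling, DESeq2, the TPM fits and without each replicate, with adjusted p-values up to 0.00048. The cause was not tested.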

How the results depend on the processing

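Of the counts of called genes, those tested over all time points in NT (6) and in IFT88siRNA (7) stayed within 1.5 times under every alternative, but not in the same genes. Of 2264 recomputed changes and differences of single genes, 95 had the opposite sign, 3 of them of a called value: *Tlr6* at 2 h in IFT88siRNA (0.65) was −0.04 in each TPM fit. Without a fold threshold the counts became 5 at 1 h, 6 at 2 h, 6 at 8 h and 5 at 24 h of IL-1β in NT, beside 44.9% to 60.9% of all genes, and between the siRNA groups 2 at 0 h, 1 at 2 h, 2 at 4 h, 1 at 8 h, 1 at 24 h, 5 over the time course and 2 for the response, beside 2.76% to 19.5% of all genes at single time points, 31.8% over the time course and 5.53% for the response. With upper-quartile scaling or any of the 3 TPM fits 1 gene (*Tlr2*) differed between the siRNA groups over the time course, and with the TPM fits 3 genes were called at 4 h in NT. At 1 h between the siRNA groups 0 were called without a filter and with all 36 libraries in 1 model. Leaving out libraries gave 0 to 1 over the time course, 0 to 1 at 1 h between the siRNA groups, 1 to 2 for the response, and 2 to 4 at 24 h in NT, where 4 came without NT_24h replicate 2. Causes were not tested. Against the counts, log2(TPM + 1) shifted the median of all genes in NT by −0.15 at 1 h, −0.23 at 2 h and −0.24 at 4 h, and upper-quartile scaling by −0.11 at 2 h and −0.12 at 4 h.

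With the replicate number as a block, 6 genes were called over the NT time course, as without it, and *Ly96* at 2 h in NT, at 0.58 on the log2 scale, was no longer past the fold threshold. Between the siRNA groups, the deviations of libraries with the same number had r from −0.13 to 0.22 over 18 pairs, over 0.1 in 2. Pairs with different numbers had r from −0.30 to 0.32 over 36 pairs. With 3 libraries per condition these values cannot decide whether the numbers pair the samples, which the labels do not say.

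Depth limits *Tlr1* (at most 35 counts) most. *Ly96* at 4 h in NT (log2 0.38 to 0.69 over 30 alternatives) and *Tlr2* at 1 h between the siRNA groups lie at the fold threshold.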
